A study of Homo sapiens with 6 samples.

Results

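The genes described here encode the machinery of synaptic vesicle release, and were examined in SH-SY5Y cells, a human neuroblastoma line of neuronal character, 1 h after exposure to unconjugated bilirubin (UCB). The 9 genes were taken by function and not by level or response, and are VAMP2, STX1A, SNAP25, SYT1, NSF, SYP, SV2A, SYN1 and RAB3A. Every probe set of the array annotated with only 1 of these symbols was taken, which gave 13 of the 22215 probe sets that are not controls of the platform. VAMP2 had 3 probe sets, SNAP25 and SYT1 had 2 each, and the other 6 genes had 1 each. The study treated cells with Bf 140 nM, that is free bilirubin not bound to albumin, and compared them with cells given DMSO 0.6%, the solvent of the UCB. Each group had 3 biological replicates grown in separate flasks, numbered 1 to 3 in both groups. All samples were the same tumour line, so the values describe its transcripts and no mature synapse. The later time points of the study were not analysed here.

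A synaptic vesicle fuses with the plasma membrane when a SNARE protein on the vesicle zips together with SNARE proteins on the target membrane. A calcium sensor on the vesicle couples this step to the arrival of an action potential, and an ATPase later takes the spent SNARE complex apart so that its parts can be used again. Neuroendocrine cells and neuroblastoma lines release catecholamine and peptide from dense-core granules with much of the same machinery.

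The sequence before the annotated start is shown for 4 of the genes, picked by their values between replicates. With all arrays as deposited, SYT1 and SV2A were higher on the replicate 3 arrays of both groups. SYN1 and STX1A did not pass the test between replicates. VAMP2 also passed and NSF, SYP and RAB3A also did not, so these values alone do not give the choice of the 4, which is no contrast of the 2 kinds. Whether these sequences bear on the replicate differences was not tested. The RefSeq promoter windows of GRCh38.p14 held 8 of the 9 genes, SNAP25 being the exception, and the 250 bases before the annotated start are given 5′ to 3′. Capitals mark matches, on either strand, to the GC box GGGCGG, the cAMP response element TGACGTCA, the CCAAT box CCAAT, the TATA box TATAAA and TTCAGCACC, the left part of the RE1 element bound by the neuronal repressor REST. The windows lie at chrX:47619858-47620107 (minus strand) for SYN1, chr7:73719670-73719919 (minus strand) for STX1A, chr12:78864524-78864773 (plus strand) for SYT1 and chr1:149906992-149907241 (minus strand) for SV2A.
SYN1: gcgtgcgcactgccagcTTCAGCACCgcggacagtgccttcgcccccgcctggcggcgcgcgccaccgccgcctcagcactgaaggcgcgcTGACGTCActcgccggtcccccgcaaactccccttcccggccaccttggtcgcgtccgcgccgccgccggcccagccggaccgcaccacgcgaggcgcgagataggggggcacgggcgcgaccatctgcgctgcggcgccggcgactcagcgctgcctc
STX1A: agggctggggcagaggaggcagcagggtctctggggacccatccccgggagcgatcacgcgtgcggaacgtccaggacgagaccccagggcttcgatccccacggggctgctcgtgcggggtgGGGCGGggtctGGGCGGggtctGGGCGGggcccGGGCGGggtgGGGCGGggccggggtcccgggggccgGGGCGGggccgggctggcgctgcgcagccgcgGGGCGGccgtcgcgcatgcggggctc
SYT1: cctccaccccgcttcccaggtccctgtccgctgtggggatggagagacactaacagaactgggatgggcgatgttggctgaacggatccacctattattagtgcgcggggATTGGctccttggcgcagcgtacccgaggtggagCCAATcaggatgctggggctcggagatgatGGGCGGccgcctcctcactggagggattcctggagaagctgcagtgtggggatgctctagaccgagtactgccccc
SV2A: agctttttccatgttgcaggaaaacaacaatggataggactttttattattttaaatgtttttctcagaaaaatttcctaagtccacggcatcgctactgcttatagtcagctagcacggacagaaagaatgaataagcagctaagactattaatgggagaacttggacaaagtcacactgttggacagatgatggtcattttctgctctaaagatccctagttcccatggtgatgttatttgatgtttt

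SYN1 was the only one of the 8 genes with the RE1 part, at position -233 from its start, and the only one with the cAMP response element, at position -159. Of all 35116 windows of this length, 0.288% held the RE1 part and 1.65% the cAMP response element. STX1A carried 7 GC boxes, VAMP2 carried 4 in each of its 2 overlapping windows, SYP 4, RAB3A 3 and SYT1 1, where 42.6% of all windows held at least 1. SYT1 also held 2 CCAAT boxes, a motif of 32% of windows. The window of SV2A held 0 of these motifs, 3 CpG dinucleotides and 37.2% G and C, against 13 to 42 CpG dinucleotides and 62.0% to 82.0% G and C in the other windows. It was the only window available for SV2A, and whether these cells use that start of the gene was not tested. These matches describe letters of the reference and say nothing of whether a factor was bound in these cells.

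The deposited values are log2 intensities after variance-stabilizing normalization, on which a step of 1 is close to 2-fold for a bright probe set and understates the fold near background. The arrays had medians between 7.73 and 7.97. Both replicate 3 arrays stood apart. Their highest correlations with an array of another number were 0.973 and 0.977, against 0.993 to 0.995 for the arrays of replicates 1 and 2. Between the arrays of 1 number the correlation was 0.995 to 0.998 for all 3 numbers. The 3′ probe set of the actin control exceeded the 5′ one by 1.49 log2 on the Bf array and 1.90 log2 on the DMSO array of this number, against 0.10 to 0.50 log2 on the other arrays. For the GAPDH control these values were 1.03 and 1.15 log2, against 0.20 to 0.25 log2. The medians of the replicate 3 arrays lay lower by -0.20 log2 on average. Of the noradrenergic neuroblastoma markers, 11 of 13 had a probe set, and the median percentile of their levels was 96.6. TH, the first enzyme of catecholamine synthesis, was among the dim ones at percentile 13.9 and HAND2 was at 49.6, while DBH, which makes noradrenaline, was at percentile 98.3. The 10 mesenchymal markers had a median percentile of 61.3, from 13.0 for PRRX1 to 99.4 for VIM, with TWIST1 at 97.2. Their mean levels were 9.01 to 9.34 in Bf 140 nM and 9.09 to 9.33 in DMSO 0.6%, so both groups covered nearly the same range.

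The 9 genes ranged from below the middle of the array to near its top. Percentiles among all 22215 probe sets are given for the mean of the 6 arrays. They rank brightness and not transcript number, because probe sets differ in how well they bind. The brighter SNAP25 probe set was at percentile 91.3, NSF at 89.1, the brighter SYT1 probe set at 88.9 and SV2A at 88.1. STX1A at 68.6, RAB3A at 59.0, the brightest VAMP2 probe set at 58.3 and SYN1 at 53.3 lay nearer the middle. SYP, the vesicle protein synaptophysin that is widely used as a marker of synapses, was at percentile 44.0 and ranged from 41.7 to 46.9 over the 6 arrays. The other VAMP2 probe sets were at 35.8 and 36.6, the dimmer SNAP25 probe set at 75.8 and the dimmer SYT1 probe set at 67.7. In these bulk cultures fewer cells with a transcript and less of it in each cell cannot be told apart.

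After 1 h at Bf 140 nM none of the 13 probe sets was higher or lower than in DMSO 0.6% in limma, where a probe set passed with a Benjamini-Hochberg adjusted p under 0.10. The count was 0 of 13 against 0 of all 22215 probe sets, a background of 0%. At an unadjusted p under 0.05 it was 0 of 13, without or with the replicate number as a block, where 22 and 270 of all probe sets passed. The 13 differences had a median of -0.00 log2 and a largest size of 0.16 log2, and 6 were positive. Over all probe sets the median was 0.01 log2 and the median size 0.05 log2. The values of the 2 groups overlapped in each of the 13, whereas 2.65% of all probe sets had groups that did not overlap. The exact two-sided permutation test gave p between 0.4 and 1 for the 13, and 3 arrays against 3 cannot go below 0.1.

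**Figure D1:**
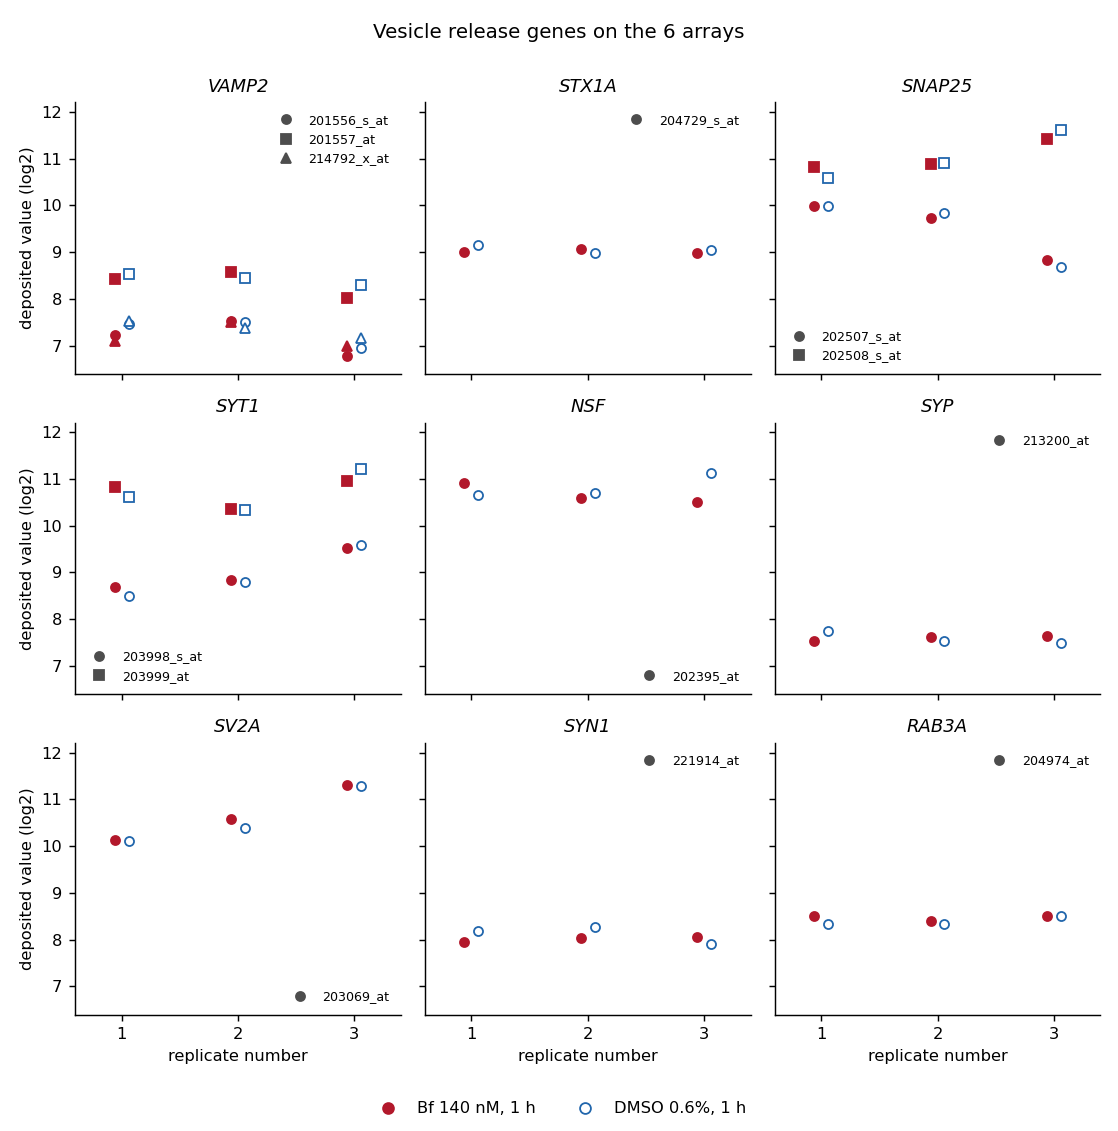
Deposited log2 values (vertical axis) of the 13 probe sets by replicate number (horizontal axis), with 1 panel per gene. Filled red symbols are Bf 140 nM, open blue symbols are DMSO 0.6%, and the symbol shape gives the probe set, named beside the grey key symbols. Red and blue symbols of a number lie close together, and at replicate 3 the SNAP25 probe sets are far apart, at 11.42 and 8.84 in Bf 140 nM.

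Among the SNARE proteins, VAMP2, the synaptobrevin of the vesicle membrane, was measured by probe sets 201556_s_at, 201557_at and 214792_x_at. On the brightest, 201557_at, replicates 1, 2 and 3 were at 8.43, 8.59 and 8.02 log2 in Bf 140 nM and at 8.53, 8.44 and 8.31 log2 in DMSO 0.6%. The lowest array of each group was its replicate 3 and the groups overlapped. The difference was -0.08 log2 (95% confidence interval -0.47 to 0.31, adjusted p = 1.00 from limma). The dimmer pair differed by -0.13 log2 (-0.70 to 0.44) and -0.15 log2 (-0.55 to 0.25). By replicate number all 3 probe sets were negative in replicates 1 and 3 and positive in replicate 2, where they differed by 0.02, 0.15 and 0.13 log2. The suffix of 214792_x_at marks probes that may bind other transcripts too.

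STX1A, syntaxin of the target membrane, was the steadiest of the 13. Its replicates 1, 2 and 3 were at 9.0, 9.06 and 8.98 log2 in Bf 140 nM and at 9.15, 8.98 and 9.04 log2 in DMSO 0.6%. These 6 values spanned 0.17 log2 and the groups overlapped. Bf 140 nM differed from DMSO 0.6% by -0.05 log2 (95% confidence interval -0.25 to 0.16).

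SNAP25 supplies the remaining SNARE helices at the plasma membrane, and its 2 probe sets took opposite directions between replicates, while both mean differences between treatments were close to 0. On 202508_s_at replicates 1, 2 and 3 were at 10.81, 10.89 and 11.42 log2 in Bf 140 nM and at 10.58, 10.91 and 11.62 log2 in DMSO 0.6%. On 202507_s_at they were at 9.99, 9.72 and 8.84 log2 in Bf 140 nM and at 9.98, 9.84 and 8.69 log2 in DMSO 0.6%. In both groups replicate 3 was thus the highest array on the former probe set and the lowest on the latter. The Bf minus DMSO differences were 0.00 log2 (95% confidence interval -0.72 to 0.72) and 0.02 log2 (-1.04 to 1.07). In replicate 3 the treatment differences of the 2 probe sets had opposite signs, at -0.20 and 0.15 log2. The wide intervals follow the spread between replicates, and with the replicate number as a block they narrowed to -0.21 to 0.21 log2 and -0.17 to 0.21 log2.

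SYT1, synaptotagmin, is the calcium sensor of fast release. On 203999_at replicates 1, 2 and 3 were at 10.83, 10.35 and 10.96 log2 in Bf 140 nM and at 10.61, 10.33 and 11.21 log2 in DMSO 0.6%. On 203998_s_at they were at 8.69, 8.83 and 9.53 log2 in Bf 140 nM and at 8.50, 8.79 and 9.58 log2 in DMSO 0.6%. Replicate 3 was the highest of each group on both probe sets. The differences between the groups were -0.00 log2 (95% confidence interval -0.65 to 0.64) and 0.06 log2 (-0.76 to 0.88). By replicate number both were positive in replicates 1 and 2 and negative in replicate 3.

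NSF, the ATPase that takes spent SNARE complexes apart, had the largest difference of the 13 in size. Its replicates 1, 2 and 3 were at 10.91, 10.58 and 10.50 log2 in Bf 140 nM and at 10.66, 10.69 and 11.12 log2 in DMSO 0.6%. The difference of -0.16 log2 (95% confidence interval -0.58 to 0.25) came with replicate differences of 0.25, -0.11 and -0.62 log2. The negative mean therefore rested on replicate 3, and without both arrays of that number the difference was 0.07 log2.

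Of the vesicle membrane proteins, SV2A, a transporter-like glycoprotein of the vesicle, was at 10.13, 10.59 and 11.30 log2 in replicates 1, 2 and 3 of Bf 140 nM and at 10.10, 10.40 and 11.29 log2 in those of DMSO 0.6%. Same-numbered arrays differed by 0.03, 0.19 and 0.01 log2, while the replicates of a group spanned over 1 log2. SV2A was the 1 probe set of the 13 that was positive in all 3 replicate numbers, which held for 11.8% of all probe sets. Over all arrays it differed by 0.07 log2, with 95% confidence intervals of -0.89 to 1.04 without and -0.11 to 0.26 with the replicate block.

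SYP was at 7.55, 7.63 and 7.63 log2 in Bf 140 nM and at 7.75, 7.54 and 7.49 log2 in DMSO 0.6%. The groups overlapped and the difference was 0.01 log2 (95% confidence interval -0.23 to 0.25). SYN1, synapsin, which tethers vesicles to each other and to actin, was at 7.94, 8.04 and 8.06 log2 in Bf 140 nM and at 8.19, 8.28 and 7.91 log2 in DMSO 0.6%. The Bf arrays were lower in replicates 1 and 2, by -0.24 log2 in each, and higher by 0.15 log2 in replicate 3. Over all arrays SYN1 differed by -0.11 log2 (95% confidence interval -0.40 to 0.17).

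RAB3A, the small GTPase that cycles on and off vesicles before release, was at 8.50, 8.40 and 8.50 log2 in Bf 140 nM and at 8.33, 8.33 and 8.51 log2 in DMSO 0.6%. The DMSO array of replicate 3 lay above all 3 Bf arrays and the other DMSO arrays lay below them. The difference was 0.08 log2 (95% confidence interval -0.15 to 0.30).

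**Figure D2:**
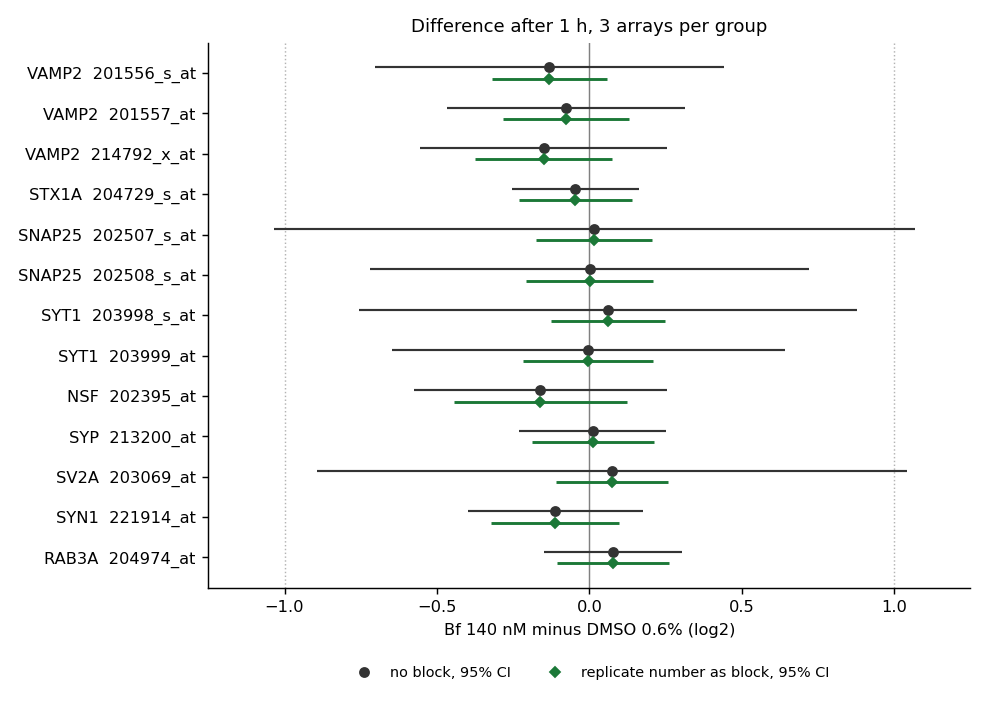
Bf 140 nM minus DMSO 0.6% after 1 h on the log2 scale (horizontal axis) for the 13 probe sets (vertical axis), 3 arrays per group. Black circles have 95% confidence intervals without a block and green diamonds those with the replicate number as a block, and dotted lines mark a 2-fold change. Every interval spans 0, and without the block those of SNAP25 202507_s_at and SV2A pass a dotted line.

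The precision set what could be seen. Without the block the median 95% confidence interval of the 13 reached 0.42 log2 on either side of the difference, and a 2-fold change lay inside the interval for SNAP25 202507_s_at (both directions) and SV2A (higher only). Blocking on the replicate number, the median reach was 0.20 log2, and the widest interval, that of NSF, was -0.44 to 0.12 log2. The 13 probe sets are of 9 genes on the same 6 arrays and are not independent.

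SNAP25, SYT1, SV2A and VAMP2 differed between replicate numbers. An F test of the replicate number in limma, with treatment in the model and 2 arrays per number, had an adjusted p under 0.10 in 8 of the 13 (61.5%), beside 44.6% of all probe sets. These 8 belonged to SNAP25, SYT1, VAMP2 and SV2A, and none to STX1A, NSF, SYP, SYN1 or RAB3A. In 4 of them replicate 3 was higher than the mean of replicates 1 and 2 (17.3% of all probe sets) and in 4 lower (27.2% of all). These directions are signs of that difference, because the F test asks only whether any replicate numbers differ. By the brightest probe set of each gene, 4 of the 9 genes passed, against 44.2% of all 11963 genes, so by gene the share was that of the background. None of these backgrounds was matched for brightness, and most of the 13 lay above the median level. In a fit of the probe sets above that level alone, 7002 passed, 6 of them members, against 9897 in the fit of all.

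SV2A was higher on the replicate 3 arrays by 0.99 log2 (95% confidence interval 0.79 to 1.18, adjusted p = 8.9e-06 from the limma F test), which is 1.98-fold. SYT1 was higher by 0.85 log2 (0.65 to 1.05) on 203998_s_at and by 0.56 log2 (0.33 to 0.78) on 203999_at. VAMP2 was lower on all 3 probe sets, by -0.57, -0.33 and -0.30 log2. The calls of 201557_at (-0.33) and 214792_x_at (-0.30) were lost when array medians were set equal, where they were at -0.13 and -0.10 log2 (adjusted p = 0.54 and 0.50 from limma), and also under quantile normalization. That of 201556_s_at passed under both, at -0.37 and -0.44 log2. The call of 201557_at was also lost without Bf replicate 2 (-0.25) or Bf replicate 3 (-0.18), and that of 214792_x_at without Bf replicate 2 (-0.19). Equal medians remove the lower median of the replicate 3 arrays. RAB3A, at 0.12 log2 (adjusted p = 0.54) on the deposited values, passed under that scaling, at 0.31 log2 (adjusted p = 0.041 from limma), and under quantile normalization, at 0.30 log2. NSF, at 0.10 log2 on all arrays, passed without Bf replicate 3, at 0.44 log2 (adjusted p = 0.0029 from limma), and SYN1, at -0.12 log2, passed without the same array, at -0.32 log2 (adjusted p = 0.065 from limma). NSF also passed without DMSO replicate 1, where its replicate 3 difference was -0.054 log2. Both its sign and its size thus depended on which array was left out, and these calls give no direction for replicate 3.

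The SNAP25 probe sets moved in opposite directions. Replicate 3 was lower by -1.12 log2 (95% confidence interval -1.32 to -0.92, adjusted p = 6.2e-06 from the limma F test) on 202507_s_at and higher by 0.72 log2 (0.50 to 0.94, adjusted p = 0.00033) on 202508_s_at. With equal array medians they were at -0.92 and 0.92 log2, and under quantile normalization at -1.0 and 0.56 log2. The brighter exceeded the dimmer probe set by 0.82 and 1.17 log2 on the Bf arrays of replicates 1 and 2, and by 0.61 and 1.08 log2 on the DMSO arrays. On the replicate 3 arrays this gap was 2.58 log2 for the treated cells and 2.93 log2 for the solvent controls. The 3′ to 5′ brightness of the actin and GAPDH controls was also highest on these 2 arrays. The positions of the probes along the SNAP25 transcript are not in the values used here, and the part of RNA integrity in the gap was not tested. Nor was its part in the replicate 3 differences of SV2A, SYT1 and VAMP2.

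**Figure D3:**
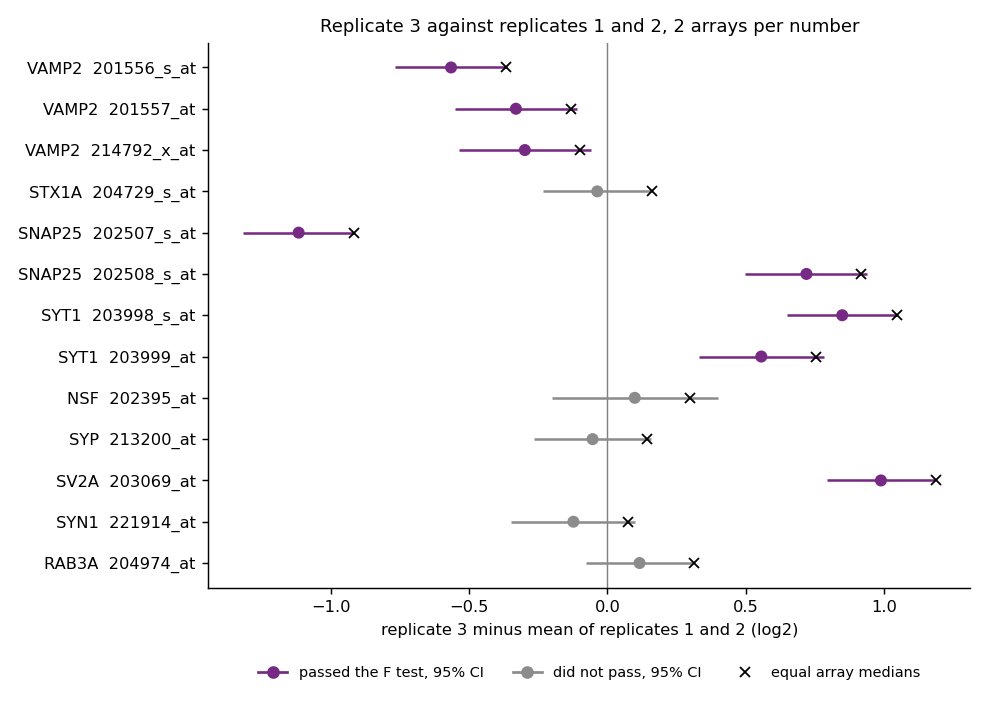
Replicate 3 minus the mean of replicates 1 and 2 on the log2 scale (horizontal axis) for the 13 probe sets (vertical axis), 2 arrays per replicate number. Purple circles passed the limma F test of the replicate number and grey ones did not, lines are 95% confidence intervals, and crosses are the values with equal array medians. The SNAP25 probe sets lie on either side of 0, at -1.12 and 0.72.

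Agreement between probe sets of a gene followed the same pattern. Over the 6 arrays the VAMP2 probe sets correlated with each other at Pearson r = 0.84 to 0.92 and the SYT1 probe sets at 0.72, whereas the SNAP25 probe sets correlated at -0.97. These are descriptions over n = 6 arrays that share 3 replicate numbers. On the 4 arrays of replicates 1 and 2 alone the SYT1 probe sets were at -0.59, the SNAP25 probe sets at -0.67 and the VAMP2 probe sets at 0.58 to 0.88. In the Bf minus DMSO difference the VAMP2 probe sets had like signs in 3 of 3 replicate numbers, the SYT1 probe sets in 3 of 3 and the SNAP25 probe sets in 2 of 3. Of the 4310 genes with more than 1 probe set, 769 (17.8%) had probe sets that passed the F test with replicate 3 differences of opposite sign. The sign itself was not tested in this count. Among the 1790 genes with at least 2 called probe sets, as SNAP25 has, this share was 43.0%. A gap at least as large as the 1.84 log2 of SNAP25 was seen in 111 of the 4310 (2.58%).

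Of the further SNARE proteins 4 had more than 1 probe set that passed the F test. Their replicate 3 differences had opposite signs for SNAP23, VAMP3 and VAMP4 and like signs for STX3. Over the array opposite signs held for 43.0% of the genes with at least 2 called probe sets, and 4 genes are too few to set against that share. Outside the SNARE proteins called probe sets also had opposite signs in RAB3GAP1 and SCAMP1, and like signs in NAPA and SYT11, so the split is not particular to SNARE genes. SNAP23, the form of SNAP25 found in most tissues, was higher on replicate 3 by 0.39 log2 on its brightest probe set, 209130_at, and lower by -1.40 and -1.56 log2 on 209131_s_at and 214544_s_at. VAMP3, the cellubrevin of recycling vesicles, was higher by 0.45 log2 on 201336_at and lower by -1.34 and -1.13 log2 on 201337_s_at and 211749_s_at. These 6 probe sets of SNAP23 and VAMP3 passed the F test, with adjusted p values from 7.6e-07 to 0.036 by limma. VAMP4, a SNARE of the trans-Golgi network, was higher by 0.76 log2 on its brightest probe set and lower by -0.43 log2 on another that passed. STX3, a syntaxin, had replicate 3 differences of -0.19 log2 on 209238_at and -0.73 log2 on 216985_s_at. The 95% confidence interval of the former, -0.38 to 0.01 log2, spanned 0, so its call is not one of a lower replicate 3. Between treatments the brightest probe sets differed by 0.04 log2 (95% confidence interval -0.44 to 0.51) for SNAP23 and -0.02 log2 (-0.51 to 0.47) for VAMP3. VAMP1 was at -0.04, SYN2 at -0.18, SYN3 at 0.08, SV2B at 0.05, SV2C at 0.19, RAB3B at 0.15, RAB3D at 0.02, SYPL1 at -0.01, SYT5 at -0.08 and SYT11 at -0.02 log2, and none passed. SV2B was dim, at percentile 14.9, whereas SV2C was at percentile 83.1.

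The wider list of vesicle release and retrieval held 102 further genes, of which 80 had a probe set with 1 symbol. By the brightest probe set of each gene, limma called 0 higher and 0 lower in Bf 140 nM, and 0 had an unadjusted p under 0.05, against 7 of all 11963 genes. The median difference was 0.00 log2, with a range of -0.18 to 0.19 log2, and 40 were positive, where the median over all genes was 0.01 log2. By role the medians lay between -0.05 log2 for the 9 genes of the RAB3 cycle and 0.04 log2 for the 11 of the active zone scaffold. RAB3GAP1, which activates the GTPase of RAB3, was at -0.15 log2, and RIMS2, an active zone protein that binds RAB3, at -0.11 log2. PPFIA4, a liprin of the active zone, was at 0.11 log2 and PPFIA1 at -0.04 log2.

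The remaining roles were likewise near 0 between treatments. Of the 9 further SNARE proteins, VAMP7 had the most positive value, 0.13 log2 (95% confidence interval -0.63 to 0.89). Of the 3 genes measured for SNARE disassembly, NAPA, the adaptor that brings NSF to the complex, was at -0.14 log2 and NAPG at 0.01 log2. Among 10 partners and priming factors CPLX2, a complexin, was at 0.09, UNC13B at -0.04 and CADPS at -0.06 log2. Of 6 synaptotagmins SYT2 was at 0.16 and SYT12 at -0.10 log2. Among vesicle membrane proteins SCAMP1 was at -0.06 log2. Of the 17 genes of retrieval by endocytosis, CLTC, the clathrin heavy chain, was at 0.04, BIN1 at 0.08 and SH3GL3 at -0.16 log2.

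Between replicate numbers 47 of these 80 genes (58.8%) passed the F test, 19 with replicate 3 higher and 28 lower. Of all 11963 genes 44.2% passed, 2383 higher and 2901 lower. These shares were not matched for brightness, and the median level percentile was 66.4 for the 80 genes and 57.7 for all genes. A larger share passed in the fit of the probe sets above the median level, so the excess over 44.2% is not a result about these genes. The balance of directions turned with the scaling, since of all probe sets called 38.9% were higher as deposited and 69.7% with equal array medians. NAPA was lower on replicate 3 on both its probe sets, by -1.20 and -0.99 log2, and SYPL1, a relative of synaptophysin, was lower by -1.10 log2 on its brighter and higher by 0.24 log2 on its dimmer probe set, which did not pass. RAB3GAP1 was higher by 0.83, VAMP7 by 0.77 and RIMS2 by 0.74 log2.

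**Figure D4:**
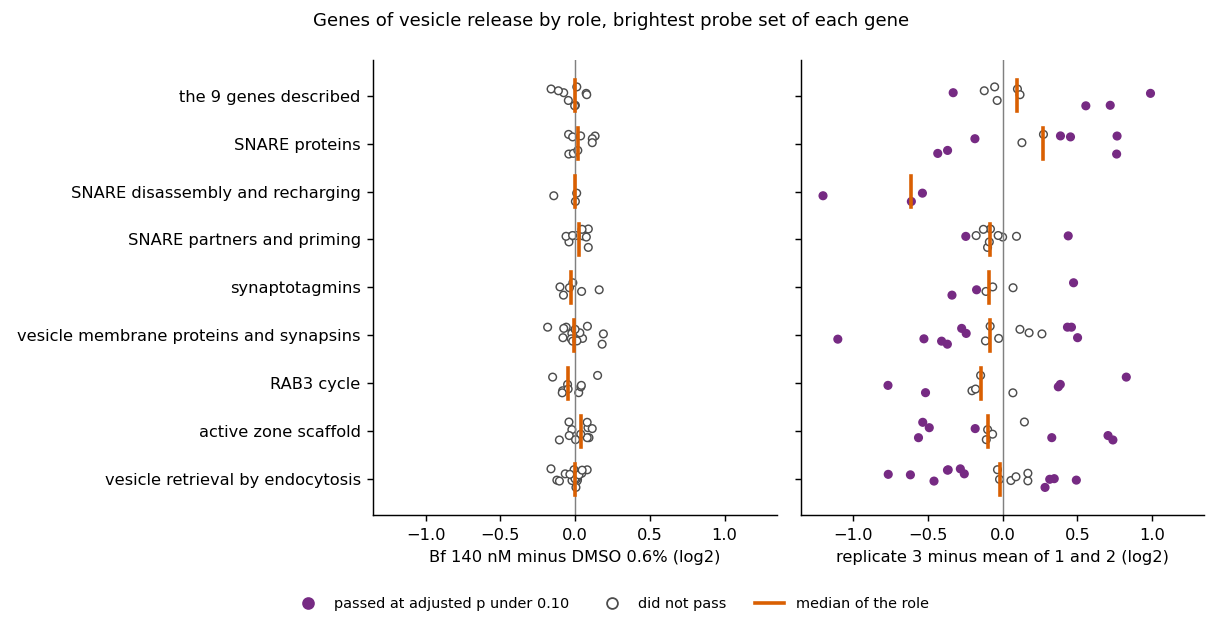
Differences on the log2 scale (horizontal axes) for the 9 genes described and 80 further genes of vesicle release by role (vertical axis), each by its brightest probe set. The left panel is Bf 140 nM minus DMSO 0.6% and the right panel is replicate 3 minus the mean of replicates 1 and 2, with filled circles for genes that passed the test and orange bars for medians. On the left all genes lie within -0.18 to 0.19, and on the right they reach -1.20 and 0.99.

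The genes whose values over the 6 arrays were most like those of the SNARE members and SYT1 were sought among 9947 named probe sets brighter than the median. For SYT1 they were PCLO, the piccolo scaffold of the active zone (Pearson r = 0.999), NCAPG (0.999) and QDPR (0.997), and for SNAP25 they were EFR3A, PHKB and NEMF, each at 0.998. Of the probe sets searched, 10.1% had r over 0.9 with SYT1 and 15.8% with SNAP25, so a high value was common for these profiles. The SYT1 probe set used, 203999_at, had means of 10.72, 10.34 and 11.09 log2 in replicates 1, 2 and 3. For VAMP2 they were STAU1 (0.995), MT1G (0.991) and FILIP1L (0.987), with 1.33% over 0.9. For STX1A they were AP2A2, a clathrin adaptor subunit (0.954), TINF2 (0.954) and TPGS2 (0.924), with 0.0603% over 0.9. These correlations are descriptions over n = 6 arrays that share treatment and replicate number.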

How the data were processed

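Total RNA of 6 SH-SY5Y cultures, 3 per group, was hybridized to Affymetrix GeneChip human arrays. The authors took cell intensities from GCOS, applied VSN in R 2.5.0 and deposited log2 values, 1 per probe set and array. The sources used here do not give how probes were summarized, and the base of the logarithm was taken from the method. No Present-call filter was applied. Probe sets were named from the platform annotation, where 19064 of 22215 had 1 symbol. All non-control probe sets were fitted in limma 3.58.1 (R 4.3.3) with lmFit and eBayes, treatment alone or treatment and replicate number, Benjamini-Hochberg adjustment over all of them and a threshold of 0.10. SAM, the test of the study, was not run here. The scripts were tested on simulated data with the spread left by the fit with the replicate number and no replicate effect. That test therefore does not show what the fit without a block could find in these arrays. Promoter windows came from RefSeq.

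The replicate number in the titles was taken to pair arrays across groups, because both arrays of a number departed from the mean of their group in the same way (r = 0.725, 0.783 and 0.880 over probe sets). All 3 values hold the replicate 3 arrays in the group means, so the values of replicates 1 and 2 are in part set by replicate 3. They are no separate evidence that these 2 numbers pair. A number in the sample descriptions was 3, 5 and 6 for replicates 1, 2 and 3 in both groups. The sources do not say what arrays of a replicate number share. The members, the lists, the tests and the naming rule were chosen with earlier results of these data known, among them that replicate 3 stood apart. The rule named all 9 members, in each role of the wider list the brightest gene and those with the most positive and most negative difference, and close relatives of members. VAMP4, STX3 and the VAMP3, SNAP23, NAPA and SYPL1 probe sets other than the brightest were added after their values were seen. Results were recomputed with the replicate number as a block, under quantile normalization, with array medians set equal, with 2 filters on level, trend and robust settings, array weights, a threshold of 0.05, leaving out arrays, and gene means.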

Additional observations from a re-analysis of the deposited data

How the results depend on the processing

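Between treatments 0 probe sets passed in limma under each alternative that tested the whole table or the part of it left by a filter, and with the replicate number as a block, where SNAP25 202507_s_at was at 0.02, no call changed. The filter at the median level kept 10 of the 13 probe sets, without SYP, VAMP2 201556_s_at and VAMP2 214792_x_at, and gene means were taken only for VAMP2, SNAP25 and SYT1. The replicate number was called for 6 to 9 of the 13 and for 7392 to 11061 of all probe sets where none was filtered at the median level, and for 6 and 7002 of those left by that filter. The signs of small treatment differences depended on the setting. Under quantile normalization they turned for SNAP25 202507_s_at (-0.0062), SYT1 203999_at (0.012) and SYP (-0.015), and with equal array medians for SNAP25 202507_s_at (-0.0040), SNAP25 202508_s_at (-0.018) and SYP (-0.0086). Array weights turned SNAP25 202507_s_at (-0.14) and SYT1 203999_at (0.16). Without both replicate 3 arrays VAMP2 201557_at was at 0.03, SNAP25 202507_s_at at -0.05, SYT1 203999_at at 0.12, NSF at 0.069 and SYP at -0.055, and the mean of its probe sets put SYT1 at 0.029. Replicate 3 differences that had not passed turned positive under quantile normalization for STX1A (0.086), SYP (0.13) and SYN1 (0.080), and with equal medians for STX1A (0.16), SYP (0.14) and SYN1 (0.075). Of all probe sets called for the replicate number, 38.9% were higher on replicate 3 as deposited, 52.4% under quantile normalization and 69.7% with equal medians. The causes were not tested.

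With 1 array left out, treatment differences ranged from -0.31 to 0.069 for VAMP2 201556_s_at, -0.20 to 0.085 for 201557_at, -0.30 to -0.049 for 214792_x_at, -0.085 to 0.0013 for STX1A, -0.39 to 0.35 for SNAP25 202507_s_at, -0.23 to 0.29 for 202508_s_at, -0.19 to 0.37 for SYT1 203998_s_at, -0.20 to 0.24 for 203999_at, -0.28 to -0.013 for NSF, -0.040 to 0.088 for SYP, -0.24 to 0.42 for SV2A, -0.22 to -0.035 for SYN1 and 0.046 to 0.14 for RAB3A. Replicate 3 differences ranged from -0.083 to 0.0095 for STX1A, -0.25 to 0.44 for NSF, -0.15 to 0.045 for SYP and -0.32 to 0.073 for SYN1. At an adjusted p under 0.05 the calls of VAMP2 201557_at and 214792_x_at were lost. The 3 arrays per group and the brightness of dim probe sets limit what could be seen, and the leave-one-out fits assume that arrays vary alike in both groups.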
